A study of Vitis vinifera with 27 samples.

Results

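Sugar transport and sucrose metabolism was followed through 96 of the 27096 genes in the files. A gene was taken when its closest annotated protein was named as a SWEET or other sugar transporter, a sucrose transporter, an invertase (beta-fructofuranosidase) or invertase inhibitor, a sucrose synthase, a sucrose-phosphate enzyme, a hexokinase or a fructokinase. The rule used names and no expression value, though it was set with earlier results of these data known. The members fell into 30 sugar transporters, 16 fructokinases, 14 invertases, 10 SWEET transporters, 7 sucrose-phosphate enzymes, 6 sucrose synthases, 5 putative invertase inhibitors, 4 sucrose transporters and 4 hexokinases. The wording also caught relatives of these enzymes. Of the fructokinase class 9 were annotated as 6-phosphofructokinases, which act on fructose 6-phosphate in glycolysis, 1 of the hexokinases was a ketohexokinase, and 2 of the sugar transporters were UDP-sugar transporters. The study sequenced RNA from berries of 3 Muscat table grapes (Vitis vinifera), Xiangfei, Italia and Zaomeiguixiang, at EL35, when berries begin to colour and soften, at EL36, when veraison is complete, and at EL38, harvest ripeness. Each of the 9 groups had 3 replicates, from vines of a single vineyard kept under plastic, so each cultivar is 1 genotype at 1 site in 1 season. Whether a replicate stands for a vine is not stated, so p-values measure the spread between these samples, and in whole-berry RNA fewer cells of a type and less RNA per cell cannot be told apart.

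Grape berries import sucrose from the phloem and store it as glucose and fructose in the vacuoles of the flesh. Sucrose leaves the phloem through SWEET proteins and sucrose transporters, is split by invertases in the cell wall, vacuole or cytosol or by sucrose synthase, and the hexoses are moved across the plasma membrane by hexose transporters and into the vacuole by tonoplast monosaccharide transporters. Protein inhibitors can block the acid invertases, sucrose-phosphate synthase and sucrose-phosphatase rebuild sucrose, and hexokinase and fructokinase feed the hexoses into metabolism. Sugar accumulation begins around veraison, and the stages sampled here run from the start of softening to harvest ripeness. Soluble solids already differed between the cultivars at EL35, so EL35 need not mark the onset of accumulation in each.

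The libraries held 16908559 to 27186952 assigned fragments (median 23335793), and the 96 members took between 0.76% and 1.58% of them (median 0.95%). Values are given as FPKM, fragment counts divided by transcript length and library size, and fold changes come from edgeR's quasi-likelihood test on the rounded expected counts of all 27 samples. Genes counted as called when the p adjusted by Benjamini-Hochberg over the 21152 genes tested was 0.05 or less and the log2 fold change was 1 or more in size. Of the members 72 passed the filter on low counts and 24 did not. Some libraries stood apart. Transcripts of the seed proteins legumin, vicilin, 2S albumin and oleosin, which mark seed rather than flesh, summed to 1581 FPKM in Xiangfei EL38 replicate 3, 47934 in Italia EL35 replicate 3 and 16227 in Zaomeiguixiang EL35 replicate 3, against at most 282 in each of the other 24. Xiangfei EL35 replicate 1 held 208 genes with at least 10 counts that had at most 1 count in every other library, against 0 to 53 such genes in the other 26, and 8 members were listed in it alone. Their part in the results was not tested, and counts of members called are therefore also given without the 3 libraries with seed-protein transcripts and without all 4.

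The transcript pool of the pathway was uneven. Over the 27 libraries the highest mean among the members was 1160 FPKM, for LOC100243643, annotated as bidirectional sugar transporter N3, a member of the MtN3 (SWEET) kind of sugar carriers. It alone made 52.4% of the summed FPKM of the 30 sugar transporters, and with the hexose transporter HT6 (594 FPKM) it made 79.3%. The sucrose synthase LOC100267606 (517 FPKM), the sucrose-phosphate synthases LOC100241955 (349 FPKM) and LOC100232974 (268 FPKM) and the SWEET14 LOC100267921 (256 FPKM) followed. LOC100267921 made 91.6% of the summed FPKM of the 10 genes annotated by the name SWEET, a sum that leaves out N3. The leading hexokinase LOC100242358 averaged 146 FPKM and the leading 6-phosphofructokinase LOC100251605 189 FPKM. By contrast 36 members averaged under 1 FPKM, and 52 of the 96 were listed in every library.

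The comparison of EL35 with EL38, averaged over the 3 cultivars, asked which steps of the pathway moved between the start of softening and harvest. At this comparison 8.1% of all genes tested were called, 3.16% higher and 4.94% lower, and 17 of the 72 members tested were called, 5 higher and 12 lower at EL38. The median log2 fold change of the 72 members was -0.22, against -0.00 over all genes tested. By family the calls were 4 of 10 invertases lower, 2 of 3 invertase inhibitors higher, 1 of 5 sucrose synthases lower, 1 of 3 sucrose transporters lower, 1 of 9 SWEETs lower, 5 of 19 sugar transporters lower and 2 higher, and 1 of 14 fructokinases higher. No hexokinase (4 tested) or sucrose-phosphate enzyme (5 tested) was called. Without the 3 libraries with seed-protein transcripts 16 members were called (5 higher, 11 lower) of a background of 8%, and without all 4 libraries 15 of 71 (5 higher, 10 lower) against 8.31%. Of these 15, 13 were among the 17, and the other two were LOC100262010, called higher, and the hexose transporter HT2 gene LOC100232961, called lower (-1.09, adjusted p = 0.0264).

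The acid invertases LOC100256970, GIN2 and LOC100241232 fell, and CWINV, the acid invertase of the cell wall, was not called. LOC100256970, annotated as a soluble (vacuolar) beta-fructofuranosidase, cleaves sucrose at the acid pH of the vacuole and was the most abundant invertase. In Xiangfei it was at 241, 194 and 217 FPKM at EL35, 32.4, 69.5 and 29.6 at EL36 and 28.7, 20.4 and 13.7 at EL38. In Italia the values were 373, 128 and 57.3 at EL35, 3.49, 10.3 and 12.3 at EL36 and 18.2, 11.5 and 40.7 at EL38. In Zaomeiguixiang they were 168, 124 and 219 at EL35, 48.0, 19.6 and 35.1 at EL36 and 75.8, 29.6 and 18.7 at EL38. Within each cultivar every EL35 library lay above every later one, and the highest EL36 or EL38 value of all 18 (75.8 FPKM) exceeded only 1 EL35 library, Italia replicate 3, which held seed-protein transcripts. On the log2 scale it changed by -2.91 (standard error, SE, 0.42, adjusted p = 0.00012) from EL35 to EL36 and -2.84 (SE 0.42, adjusted p = 0.00011) from EL35 to EL38, and the change from EL36 to EL38 was 0.07 (SE 0.39, adjusted p = 1). LOC100853849, the vacuolar invertase GIN2, averaged 46.2 ± 25.5, 39.1 ± 16.9 and 72.3 ± 17.3 FPKM (SD, n = 3) at EL35 in Xiangfei, Italia and Zaomeiguixiang, and 8.99 ± 2.16, 10.3 ± 5.24 and 16.2 ± 3.60 FPKM (SD, n = 3) at EL38. The lowest EL35 library (22.4 FPKM) lay above the highest EL38 library (20.3 FPKM), so the stages did not overlap across the cultivars, and the log2 fold change was -2.21 (SE 0.35, adjusted p = 0.00022). LOC100241232, annotated as acid beta-fructofuranosidase-like, gave the same log2 fold change of -2.21 (adjusted p = 0.00035), and the FPKM ratio of GIN2 to it stayed between 0.72 and 1.81 while GIN2 itself varied 29.5-fold over the libraries. Reads of close copies could have been shared between these 2 genes, so their calls may not be independent.

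The alkaline/neutral invertases moved less. LOC100257298, a probable neutral invertase D, ran from 8.46 to 22.1 FPKM (median 13.9) over the 9 EL35 libraries and from 4.46 to 8.38 FPKM (median 6.93) over the 9 EL38 libraries, which did not overlap. Its log2 fold change was -1.05 (SE 0.25, adjusted p = 0.0074). The other neutral invertases tested were not called, with log2 fold changes of -0.43 for NIN1, -0.29 for LOC100248981, 0.14 for LOC100254513 and 0.11 for LOC100854602. CWINV, the cell wall invertase that splits sucrose outside the cell, stood at 0.40 to 17.2 FPKM at EL35 and 0.79 to 4.50 FPKM at EL38 (log2 fold change -0.29, SE 0.53, adjusted p = 0.84). From EL35 to EL36 it was not called with all libraries and was called higher without the 4 that stood apart (1.80, SE 0.54, adjusted p = 0.034). Its highest values were 17.2 and 28.9 FPKM, in replicate 1 of Xiangfei EL35 and of Xiangfei EL36, where the other replicates were between 0.40 and 2.34.

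Of the 5 putative invertase inhibitors 3 were tested and 2 were called higher, LOC100251390 and, near the threshold, LOC100250600. The third, LOC104882452, had a log2 fold change of 0.57 (SE 0.59, adjusted p = 0.652). LOC100251390 was at 1.00, 1.91 and 4.59 FPKM in Xiangfei at EL35, 7.45, 5.73 and 12.0 at EL36 and 15.6, 16.7 and 4.90 at EL38. In Italia it went from 0.78, 0.94 and 2.11 FPKM through 11.4, 15.0 and 25.5 to 32.6, 55.1 and 31.0. In Zaomeiguixiang it went from 0.35, 0.28 and 0.40 FPKM through 4.16, 3.14 and 2.33 to 9.38, 7.60 and 5.83. Every EL36 and EL38 library was above every EL35 library of its own cultivar, and in Italia and Zaomeiguixiang the 3 stages formed separate steps. The log2 fold change from EL35 to EL38 was 3.90 (SE 0.39, adjusted p = 2.3e-06), the smallest adjusted p of the members, and from EL35 to EL36 it was 3.03 (SE 0.38, adjusted p = 2.9e-05). Xiangfei EL38 replicate 3, the library of that group with seed-protein transcripts, held the lowest EL38 value. The more abundant inhibitor LOC100250600 (106 FPKM on average) ran from 22.9 to 187 FPKM at EL35 (median 74.0) and from 53.4 to 372 FPKM at EL38 (median 131), so the stages overlapped. Its log2 fold change of 1.06 (SE 0.31, adjusted p = 0.0301) was just past the minimum, and without the 4 libraries it was 0.97, under it. The inhibitor class is named by sequence likeness, and related proteins act on pectin methylesterases instead.

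**Figure D1:**
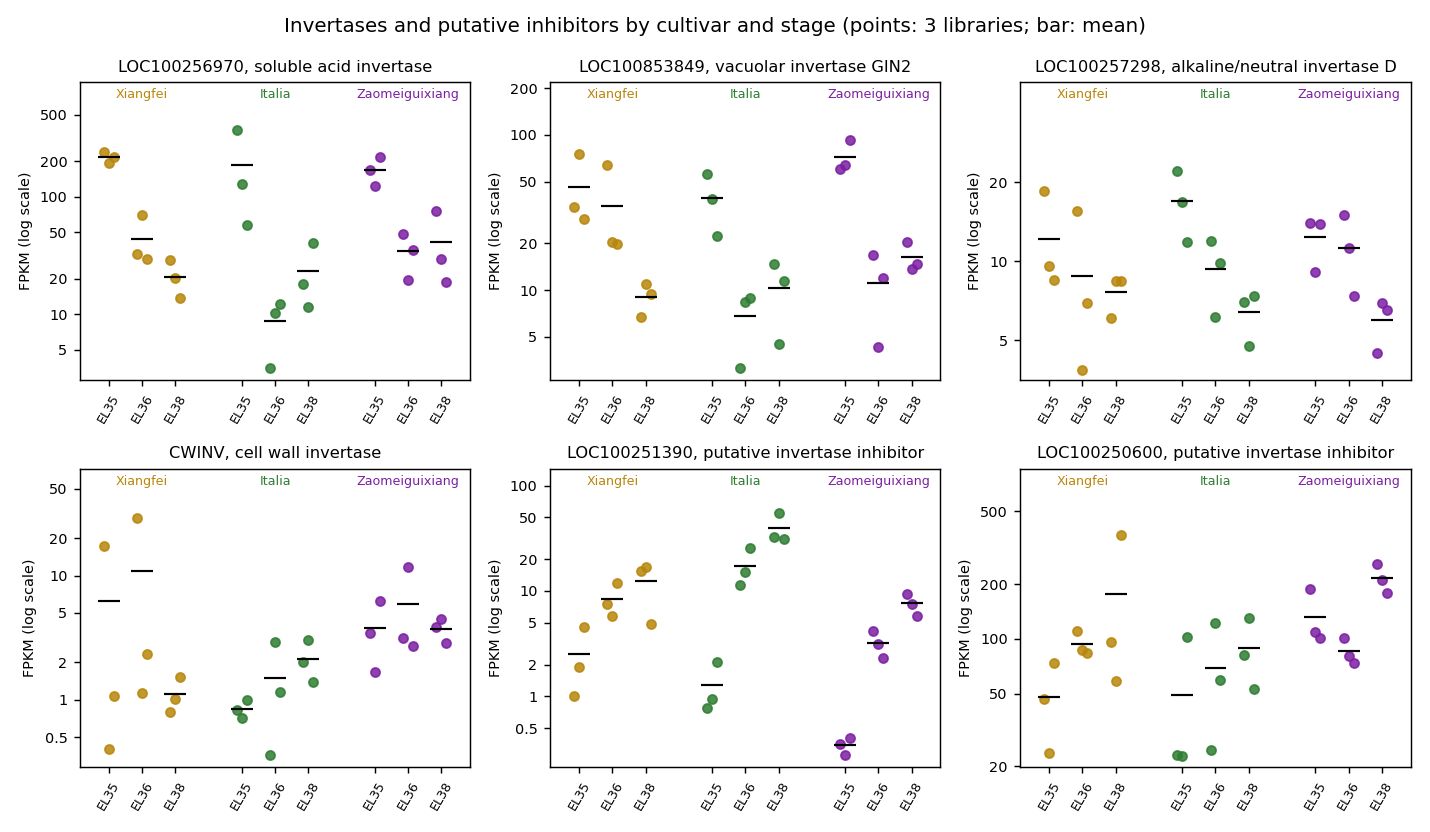
FPKM (log scale) of 4 invertases and 2 putative invertase inhibitors in each of the 27 libraries, by cultivar and stage, with a bar at each group mean. LOC100256970 and LOC100853849 are lower at EL38 than at EL35 in every cultivar without overlap, LOC100251390 is higher, and CWINV shows no step, with 17.2 and 28.9 FPKM in single Xiangfei libraries.

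The abundant sucrose synthase did not change with stage by the test. LOC100267606, which makes UDP-glucose and fructose from sucrose in the cytosol and carried 74.3% of the family, was at 235 to 1315 FPKM at EL35 and 252 to 815 FPKM at EL38 (log2 fold change -0.20, SE 0.29, adjusted p = 0.77). LOC100249279 averaged 278 ± 69.7 FPKM (SD, n = 3) at EL35 and 57.8 ± 26.1 FPKM (SD, n = 3) at EL38 in Zaomeiguixiang without overlap, but in Italia the values were 288, 152 and 106 FPKM at EL35 and 536, 166 and 105 FPKM at EL38. Its log2 fold change over the cultivars was -0.91 (SE 0.35, adjusted p = 0.11) and was not called. The called member, LOC100243135 (sucrose synthase 2), fell by 9.66 on the log2 scale (adjusted p = 0.00044), and that value rested on few libraries. It stood at 463 FPKM in Xiangfei EL35 replicate 1, 62.9 in Zaomeiguixiang EL35 replicate 3 and 5.49 in Italia EL35 replicate 3, and at no more than 0.42 in any other library. Without the 4 libraries its log2 fold change was -4.37 (adjusted p = 0.0605). A pair of further members was named here after their values were seen, since both were high in libraries that stood apart. The probable fructokinase-5 LOC100262010 was at 20.3, 22.9 and 3.73 FPKM in the order Xiangfei EL35 replicate 1, Zaomeiguixiang EL35 replicate 3 and Italia EL35 replicate 3, against at most 0.90 elsewhere, and was listed at 0 in the other 6 EL35 libraries. Its log2 fold change from EL35 to EL38 was -3.60 (SE 1.39, adjusted p = 0.106), and without the 4 libraries the direction turned and it was called higher at EL38 (5.61, adjusted p = 0.0393) and at EL36 (5.42, adjusted p = 0.0409), in a fit where all EL35 libraries left were at 0, so these values are no bound. LOC100266643, also annotated as SWEET14, was at 57.7 FPKM in Italia EL35 replicate 3, 6.35 in Zaomeiguixiang EL35 replicate 3 and 3.17 in Xiangfei EL38 replicate 3, the 3 libraries with seed-protein transcripts, and at no more than 2.92 in the others.

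Of the sucrose transporters, proton symporters that load sucrose into cells, VVSUC27 fell. It ran from 16.4 to 87.4 FPKM at EL35 (median 50.5), from 3.86 to 144 at EL36 (median 12.9) and from 1.54 to 46.5 at EL38 (median 5.10). The step was cleanest in Zaomeiguixiang, with 55.9, 22.6 and 77.4 FPKM at EL35 and 3.32, 5.10 and 1.54 FPKM at EL38. In Xiangfei the libraries overlapped, with 87.4, 77.2 and 33.4 FPKM at EL35 and 33.2, 46.5 and 21.3 FPKM at EL38. The log2 fold change over the cultivars was -2.04 (SE 0.51, adjusted p = 0.0119), and -1.81 (adjusted p = 0.0557) without the 4 libraries. VVSUC11 (log2 fold change -0.08, SE 0.30) and VVSUC12 (0.00, SE 0.24) stayed between 35.7 and 149.6 FPKM and between 14.5 and 37.2 FPKM over all libraries and were not called.

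Among the sugar transporters HT5 and HT4 rose and 5 others fell. HT5, a plasma membrane hexose transporter of grapevine, went in Xiangfei from 0.05, 0.08 and 0.34 FPKM at EL35 through 411, 0.54 and 59.2 at EL36 to 0.86, 4.90 and 1.66 at EL38. The Italia libraries held 0, 0 and 0.20 FPKM, then 0.37, 5.06 and 0.76, then 12.1, 12.5 and 1.07. Those of Zaomeiguixiang held 0.08, 0 and 0.10 FPKM, then 13.3, 45.7 and 2.83, then 4.17, 11.8 and 9.55. All 18 later libraries (0.37 FPKM or more) lay above all 9 EL35 libraries (0.34 FPKM or less), though replicates of a group spread widely. The log2 fold change from EL35 was 7.66 (SE 1.01, adjusted p = 5.2e-05) to EL36 and 5.98 (SE 0.95, adjusted p = 0.00025) to EL38. HT4, another hexose transporter, rose with a log2 fold change of 2.30 (SE 0.49, adjusted p = 0.00363), from 0.84 ± 0.60 to 6.39 ± 0.35 FPKM (SD, n = 3) in Xiangfei and from 2.69 ± 0.91 to 9.67 ± 0.26 FPKM (SD, n = 3) in Zaomeiguixiang. In Italia it was at most 0.17 FPKM in all 9 libraries.

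HT6 was the most abundant member named as a hexose transporter, a name that does not give its membrane. It ran from 232 to 1806 FPKM at EL35 (median 996) and from 139.7 to 1112 at EL38 (median 292). In Zaomeiguixiang the values went from 694, 996 and 613 FPKM to 219, 232 and 239 FPKM, and in Xiangfei from 639, 1806 and 1136 to 1112, 984 and 445, with overlap. Its log2 fold change over the cultivars was -1.39 (SE 0.42, adjusted p = 0.0343), and the call was lost with a block for the replicate number (-1.36, adjusted p = 0.0571). TMT2, a tonoplast monosaccharide transporter that in Arabidopsis relatives loads hexoses into the vacuole, went from 135 ± 49.7, 286 ± 138 and 145 ± 39.5 FPKM (SD, n = 3) at EL35 to 56.0 ± 26.9, 110.0 ± 50.4 and 72.0 ± 11.3 FPKM (SD, n = 3) at EL38 in Xiangfei, Italia and Zaomeiguixiang. The log2 fold change was -1.27 (SE 0.36, adjusted p = 0.026). Among ERD6-like carriers, a class with members that export glucose from the vacuole in Arabidopsis, LOC100266019 fell with a log2 fold change of -1.03 (SE 0.28, adjusted p = 0.0183) and LOC100267582 with -1.97 (SE 0.48, adjusted p = 0.00912). TMT3 was called lower but was listed at 0 in all 9 EL38 libraries and in 4 of the 9 at EL35, with 3.51 FPKM in Xiangfei EL35 replicate 1 and at most 0.57 elsewhere, so its fitted value is no bound on the change. LOC100241122 (SWEET4) was at 3.47, 4.25 and 4.27 FPKM in Zaomeiguixiang at EL35 and at 0 in all 3 libraries at EL38, at least 32.1-fold lower when 3 counts per library are taken as the floor. In Xiangfei it did not separate the stages (2.12, 0.71 and 2.27 FPKM against 0, 1.19 and 2.91).

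**Figure D2:**
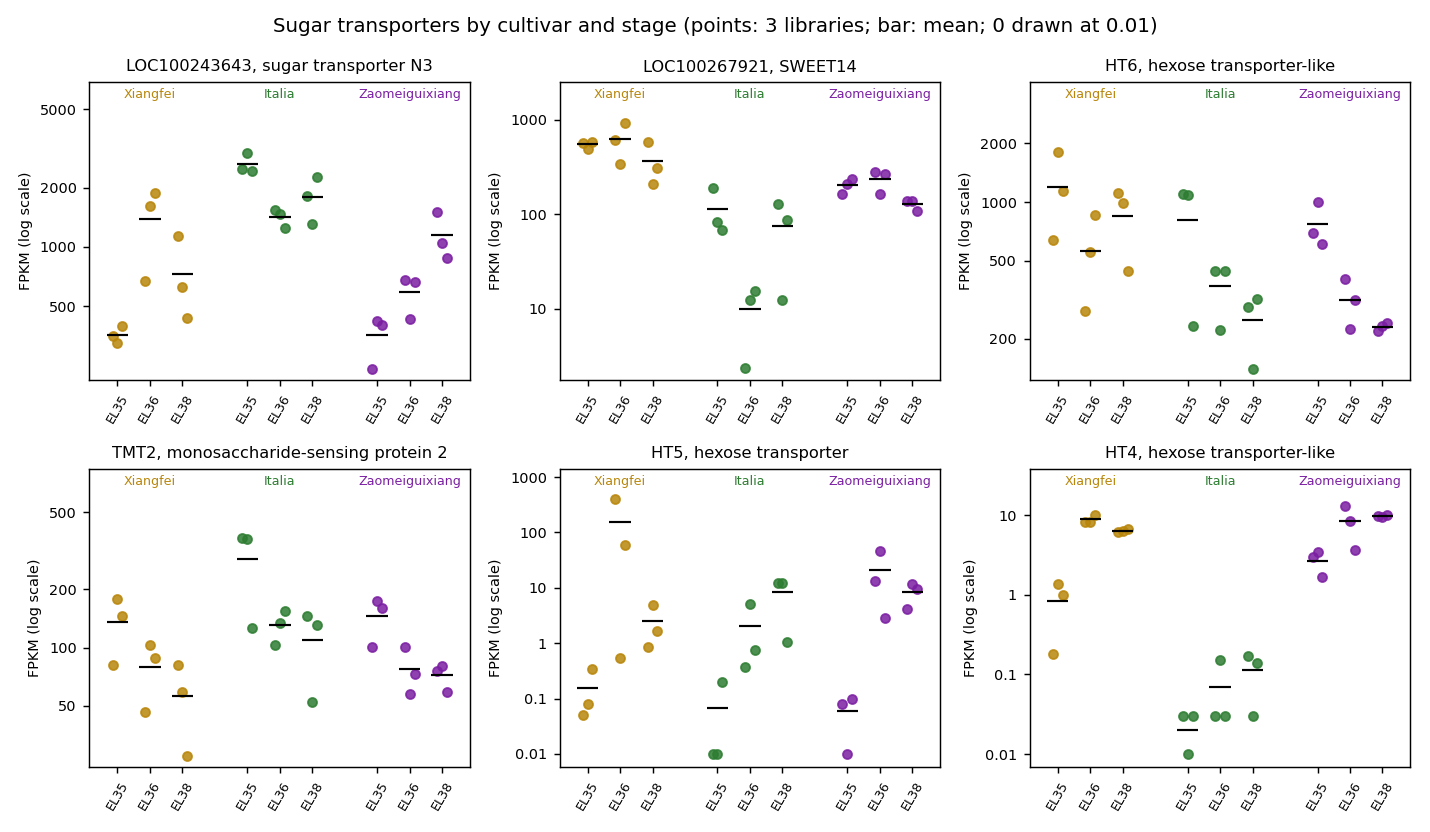
FPKM (log scale, values of 0 drawn at 0.01) of 6 sugar transporters in the 27 libraries, by cultivar and stage, with a bar at each group mean. HT5 is at 0.34 FPKM or less in every EL35 library and at 0.37 or more in every later one, HT4 is at 0.17 or less in every Italia library, and LOC100267921 is lowest in Italia at each stage by group mean.

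Of the phosphorylation genes 1 of 18 tested was called, LOC100242301. The hexokinase LOC100242358, which primes glucose for metabolism, kept between 97.2 and 212 FPKM in all 27 libraries (log2 fold change -0.13, SE 0.23, adjusted p = 0.83). The 6-phosphofructokinases LOC100251605 (-0.28, SE 0.25, adjusted p = 0.56) and LOC100245746 (-0.47, SE 0.27, adjusted p = 0.32) were not called either. LOC100242301, a low 6-phosphofructokinase annotated to the chloroplast, rose from 0.43 to 1.35 FPKM (median 0.79) at EL35 to 0.93 to 5.68 FPKM (median 2.61) at EL38, a log2 fold change of 1.74 (SE 0.43, adjusted p = 0.00982). The sucrose-building enzymes LOC100241955 (-0.44, SE 0.29, adjusted p = 0.4) and LOC100232974 (0.03, SE 0.37, adjusted p = 1) were not called. The sign of LOC100232974 turned without Xiangfei EL38 replicate 3 and Italia EL35 replicate 3 (-0.27, adjusted p = 0.786).

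From EL35 to EL36 8.26% of all genes tested and 11 of 72 members were called, 4 higher (LOC100251390, HT5, HT4 and LOC100242301, 3.76% of all genes higher) and 7 lower (4.5% of all genes lower). Between EL36 and EL38 edgeR called 0 members and 0.00473% of all genes, with 8 members (and 7.18% of all genes) at an unadjusted p under 0.05. DESeq2 called 1 member there, NIN1 (-1.06, adjusted p = 0.0492). In edgeR NIN1 also had the lowest adjusted p of the members (-1.05, SE 0.30, adjusted p = 0.31), from 5.91 to 80.6 FPKM at EL36 to 6.65 to 14.1 FPKM at EL38. The call of LOC100266759 (sucrose synthase 7) between EL35 and EL36 (-4.57, adjusted p = 0.024) concerned a gene with at most 0.97 FPKM in any library, and was lost with a replicate block (-4.01, adjusted p = 0.057), without the 3 libraries with seed-protein transcripts (-3.29, adjusted p = 0.0668) and without all 4 (-3.33, adjusted p = 0.0736). Without those 3 libraries 13 members were called from EL35 to EL36 (5 higher, 8 lower, against 8.21% of all genes), and 9 of the 11 were among them. Without all 4 it was 16 of 71 (8 higher, 8 lower, against 8.65%), and 8 of the 11 were among them. The members gained without the 4 were CWINV, LOC100245852 (probable fructokinase-4), LOC100247121 (SWEET1) and LOC100262010, called higher, and HT6, TMT2, LOC100266019 and LOC100232961, called lower. LOC100243135, TMT3 and LOC100266759 lost their calls.

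**Figure D3:**
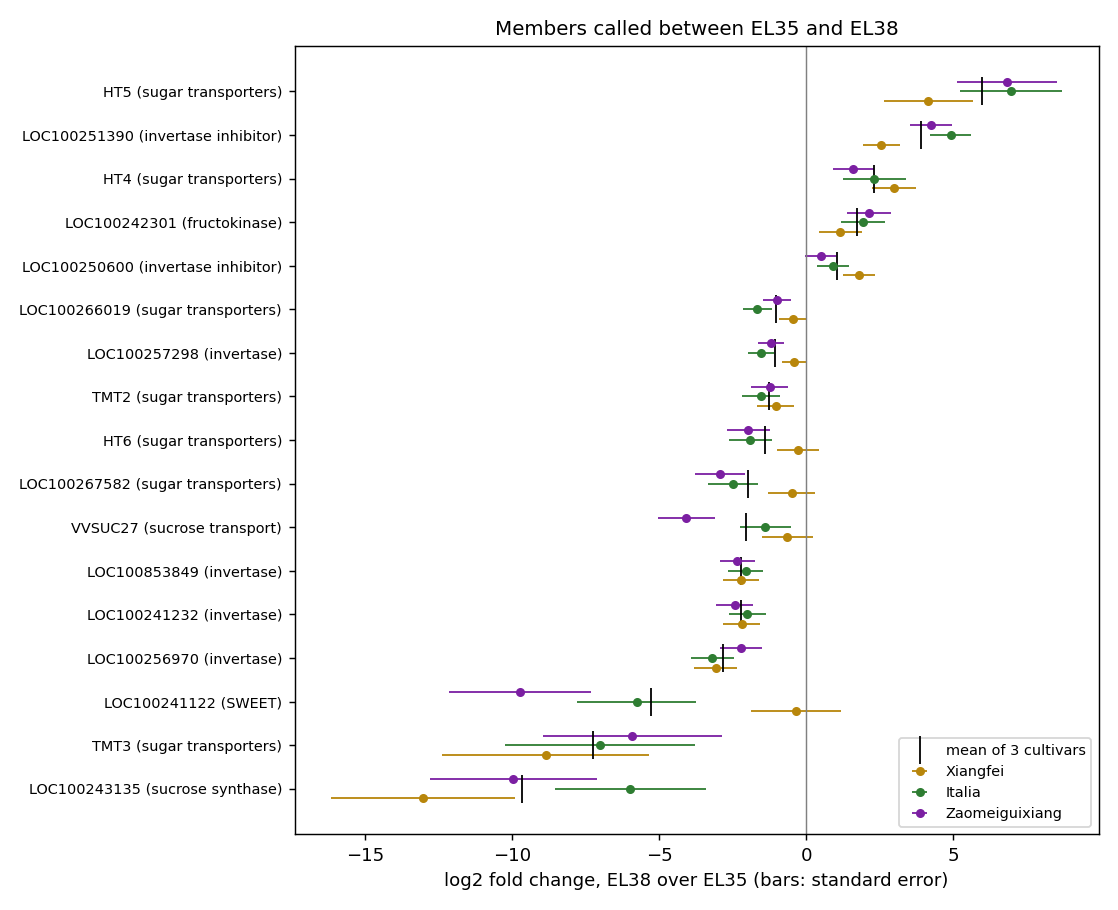
Log2 fold change from EL35 to EL38 (SE as bars) of the 17 members called over the cultivars, in Xiangfei, Italia and Zaomeiguixiang, with a tick at the mean of the 3. HT5 (5.98) and LOC100251390 (3.90) lead the rises, LOC100853849 has nearly the same value in each cultivar, and the widest bars belong to genes with libraries at 0.

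Within single cultivars fewer genes passed. From EL35 to EL38 in Xiangfei 1.17% of all genes and 5 members were called (LOC100251390, HT4 and LOC100262713 higher, LOC100256970 and LOC100243135 lower). In Italia 2.95% and 3 members were called (LOC100251390 and HT5 higher, LOC100256970 lower). In Zaomeiguixiang 1.53% and 5 members were called (LOC100251390 and HT5 higher, VVSUC27, LOC100853849 and LOC100241122 lower). These counts were unsteady. Without the 3 libraries with seed-protein transcripts they were 4, 10 and 1 of 72 in the same order, against 2.03%, 5.15% and 1.41% of all genes. Without all 4 libraries they were 1, 10 and 1 of 71, against 0.967%, 5.49% and 1.75%. LOC100251390 kept its call in Italia and Zaomeiguixiang with any single library left out, but in Xiangfei in only 2 of 6 such fits. The other calls did not hold in all fits. In Xiangfei HT4 and LOC100262713 were called in 1 of 6 each, LOC100243135 in 2 and LOC100256970 in 0. In Italia HT5 was called in 2 of 6 and LOC100256970 in 3. In Zaomeiguixiang VVSUC27 was called in 1 of 6, and HT5, LOC100241122 and LOC100853849 in 0. LOC100251390 had a log2 fold change of 2.55 (SE 0.63) in Xiangfei, 4.91 (SE 0.70) in Italia and 4.24 (SE 0.71) in Zaomeiguixiang, and that of GIN2 was -2.22, -2.06 and -2.35 (SE 0.60 in each).

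A test of whether the change from EL35 to EL38 differed between cultivars called 34 genes (0.161% of all tested) and 0 members in edgeR, with 9 members at an unadjusted p under 0.05. The lowest adjusted p was 0.107, for the sugar transport protein 14 gene LOC100262713, which went from 3.44 ± 0.58 to 8.48 ± 0.90 FPKM (SD, n = 3) in Xiangfei and from 1.40 ± 0.34 to 4.00 ± 1.28 in Italia, but from 20.8 ± 9.35 to 15.5 ± 2.00 in Zaomeiguixiang. DESeq2 called LOC100262713 alone among the members (adjusted p = 0.0078). In edgeR it passed at 0.0377 without Xiangfei EL38 replicate 3 and Italia EL35 replicate 3 and at 0.0443 without the 3 libraries with seed-protein transcripts and did not without all 4. The N3 transporter LOC100243643 showed the most visible split. It was at 353, 327 and 395 FPKM in Xiangfei and 241, 423 and 404 FPKM in Zaomeiguixiang at EL35, and at 1138, 625 and 437 and 1509, 1043 and 877 FPKM at EL38, higher without overlap in both. In Italia it was at 2496, 3008 and 2433 FPKM at EL35 and 1806, 1305 and 2251 FPKM at EL38, lower without overlap. The difference between cultivars in this change was not past the threshold (adjusted p = 0.288).

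The cultivar comparisons averaged the difference over the stages, so a call need not hold at every stage. For Italia over Xiangfei, averaged over stages, 12.2% of all genes tested (4.08% higher, 8.14% lower) and 18 of 72 members were called, 5 higher and 13 lower in Italia. For Zaomeiguixiang over Xiangfei it was 11.7% (4.82% higher, 6.85% lower) and 13 members, 3 higher and 10 lower. For Zaomeiguixiang over Italia it was 11.6% (7.37% higher, 4.24% lower) and 13 members, 7 higher and 6 lower. Without the 3 libraries with seed-protein transcripts the counts were 16, 13 and 15 in the same order (12.4%, 17.2% and 12.9% of all genes), and without all 4 they were 17, 13 and 15 (13.7%, 18.8% and 13.2%), of which 14, 12 and 13 were among the members called with all libraries. The comparisons share groups, so their calls are not independent. At a shared stage label the cultivars differed in soluble solids, a reading close to sugar content. In it Italia EL36 stood below Xiangfei EL35, so cultivar and ripeness cannot be told apart here. For Italia over Xiangfei the calls were 7 of 19 sugar transporters, 4 of 9 SWEETs and 1 of 3 sucrose transporters. They also held 2 of 10 invertases, 2 of 5 sucrose-phosphate enzymes and 2 of 14 in the fructokinase class. Among the last 2 was the 6-phosphofructokinase LOC100245726. No inhibitor, sucrose synthase or hexokinase was called. The median log2 fold change of the 72 members was -0.36, -0.23 and 0.15 in the 3 comparisons, against -0.01, 0.06 and 0.04 over all genes tested.

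The SWEET14 gene LOC100267921, of a class that lets sugars cross membranes down their gradient, separated the cultivars. It was at 569, 494 and 584 FPKM at EL35, 606, 337 and 928 at EL36 and 576, 211 and 310 at EL38 in Xiangfei. In Italia the values were 189.8, 81.8 and 67.5, then 2.36, 12.3 and 15.2, then 127, 12.3 and 87.0 FPKM. In Zaomeiguixiang they were 165, 208 and 239, then 278, 164 and 265, then 138, 137 and 107 FPKM. All 9 Italia libraries lay below all 9 Xiangfei libraries, with Zaomeiguixiang between and overlapping both. The log2 fold change was -3.74 (SE 0.44, adjusted p = 2.9e-06) for Italia over Xiangfei, -1.87 (SE 0.41, adjusted p = 0.0034) for Zaomeiguixiang over Xiangfei and 1.87 (SE 0.41, adjusted p = 0.0033) for Zaomeiguixiang over Italia. Its neighbour in the reference gene order, the SWEET14-like LOC100262834, was at 13.5, 7.05 and 21.1 FPKM in Italia at EL35 and at no more than 7.39 in any other library, but was not called for Italia over Xiangfei (2.36, SE 1.14, adjusted p = 0.17). SWEET2a (LOC100262300), whose Arabidopsis relative sits in the tonoplast, was higher in Italia than in Xiangfei (1.99, SE 0.35, adjusted p = 0.00035), with 3.24 to 9.11 FPKM against 0.36 to 3.15. SWEET1 (LOC100247121) was lower in Zaomeiguixiang than in Xiangfei (-1.85, SE 0.48, adjusted p = 0.012).

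HT4 was the most divided hexose transporter. The 9 Italia libraries held 0 to 0.17 FPKM, and the Xiangfei and Zaomeiguixiang libraries 0.18 to 13.2 FPKM, so the groups did not overlap. The log2 fold change was -6.33 (SE 0.54, adjusted p = 2.5e-08) for Italia over Xiangfei and 6.64 (SE 0.55, adjusted p = 1.3e-08) for Zaomeiguixiang over Italia, while Zaomeiguixiang and Xiangfei differed by 0.30 (SE 0.40, adjusted p = 0.64). LOC100262713 (sugar transport protein 14) ran from 13.3 to 37.6 FPKM in Zaomeiguixiang, 2.99 to 9.52 in Xiangfei and 1.18 to 5.47 in Italia. Zaomeiguixiang overlapped neither of the others, and the log2 fold change was 1.51 (SE 0.22, adjusted p = 4.8e-05) over Xiangfei and 2.90 (SE 0.23, adjusted p = 6.4e-09) over Italia. LOC100233083, a hexose transporter at the plasma membrane, was higher in Xiangfei (13.9 to 136 FPKM) than in Italia (1.74 to 39.8 FPKM), with a log2 fold change of -2.93 (SE 0.46, adjusted p = 0.00011) for Italia over Xiangfei. VVSUC27 was lower in both other cultivars than in Xiangfei, with a log2 fold change of -2.25 (SE 0.52, adjusted p = 0.0042) in Italia and -2.23 (SE 0.52, adjusted p = 0.0052) in Zaomeiguixiang. HT6 was also lower in both, at -1.23 (adjusted p = 0.044) and -1.60 (adjusted p = 0.011). By stage, VVSUC27 for Italia over Xiangfei was at -0.89 at EL35, -4.20 at EL36 and -1.65 at EL38, and was called at EL36 alone. Its Xiangfei libraries at EL36 spread widely, from 15.8 to 144 FPKM, the lowest and highest values of that cultivar. With single libraries left out, its average over stages ran from -2.89 to -1.55 and stayed called in all 18 fits. N3 was higher in Italia than in Xiangfei on average, at 1.11 (SE 0.32, adjusted p = 0.0183), which was under the minimum without the 4 libraries (0.96, adjusted p = 0.0452). By stage that difference was 2.83 at EL35, -0.32 at EL36 and 0.81 at EL38, and it was called at EL35 alone. N3 was lower in Zaomeiguixiang than in Italia, at -1.77 (SE 0.32, adjusted p = 0.00058).

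**Figure D4:**
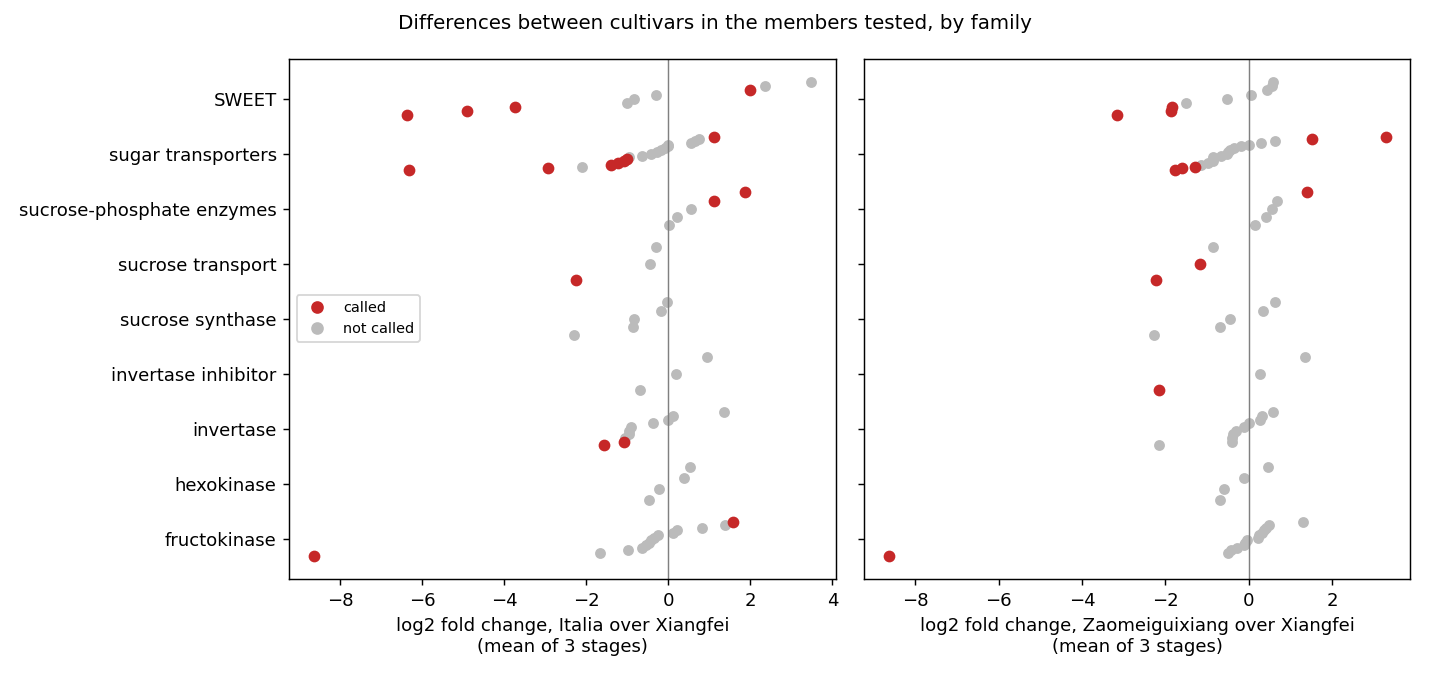
Log2 fold change of each of the 72 tested members by family, for Italia over Xiangfei (left) and Zaomeiguixiang over Xiangfei (right), averaged over the stages, with called members in red. Of these, 18 and 13 were called, most of them to the left of 0.

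Of the metabolic members, the sucrose-phosphate synthase LOC100232974 averaged 221 ± 68.6, 403 ± 30.5 and 266 ± 150.0 FPKM (SD, n = 3) over the stages in Italia and 310.0 ± 221, 421 ± 208 and 417 ± 170.0 in Zaomeiguixiang, against 153 ± 53.0, 75.4 ± 46.3 and 150.0 ± 145 in Xiangfei. It was called higher in both, by 1.12 (SE 0.37, adjusted p = 0.042) and 1.40 (SE 0.38, adjusted p = 0.014). By stage, Italia over Xiangfei gave 0.51 at EL35, 2.19 at EL36 and 0.67 at EL38, not called at any single stage. Another synthase, LOC100262385, was called higher in Italia over Xiangfei (1.88, SE 0.40, adjusted p = 0.0022). The inhibitor LOC100251390 was lower in Zaomeiguixiang than in Xiangfei (-2.14, SE 0.37, adjusted p = 0.00038) and Italia (-2.34, SE 0.37, adjusted p = 0.00015), and its 9 Zaomeiguixiang libraries ran from 0.28 to 9.38 FPKM. NIN1 was lower in Italia than in Xiangfei (-1.08, SE 0.30, adjusted p = 0.015). The 6-phosphofructokinase LOC100245726 was found in all 9 Xiangfei libraries, at 16 to 90 counts (0.37 to 1.98 FPKM), and had 0 counts in the other 18, at least 14.5-fold higher in Xiangfei with 3 counts per library as the floor. Among the members 2 gene models beyond the reference carry the same protein name, with at most 15 and 7 counts in any library. Whether reads were divided among copies was not tested. HXK2, a hexokinase, was lower in Zaomeiguixiang than in Italia (-1.07, SE 0.25, adjusted p = 0.0056).

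Other parts of carbohydrate metabolism were counted in the same fit. From EL35 to EL38 none of 11 starch synthesis, 5 hexose phosphate or 11 trehalose genes was called. Of 20 starch breakdown genes 1 was called higher, the alpha-amylase LOC100245165 (1.34, SE 0.38, adjusted p = 0.0246). Of 28 vacuolar proton pump genes, whose gradient drives sugar into the vacuole, 1 was called lower, the V-type ATPase subunit C LOC100266332 (-1.5, SE 0.29, adjusted p = 0.00159). Between Italia and Xiangfei the calls were 2 of 11, 3 of 20, 0 of 5, 1 of 11 and 3 of 28 in the order starch synthesis, starch breakdown, hexose phosphates, trehalose and proton pumps, against 12.2% of all genes. The 3 counted under starch breakdown are not annotated as active starch-degrading enzymes. They were an alpha-amylase/subtilisin inhibitor-like gene (LOC100242727, -4.62) and the inactive beta-amylases LOC100254897 (-1.16) and LOC100263193 (-1.02). The catalytic V-type ATPase subunit A LOC100266369 was higher in Italia than in Xiangfei (3.56, SE 0.48, adjusted p = 1.54e-05), and 2 ADP-glucose pyrophosphorylase large subunits, enzymes that start starch synthesis, moved in opposite directions (LOC100241983 -2.75, LOC100248665 4.12).

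Transcript levels were set beside the ripeness of the fruit. The study measured soluble solids, a refractometer reading close to sugar content, in the same groups, and only their order is used here. From lowest to highest it was Italia EL35, Italia EL36, Zaomeiguixiang EL35, Xiangfei EL35, Zaomeiguixiang EL36, Xiangfei EL36, Italia EL38, Xiangfei EL38 and Zaomeiguixiang EL38. Over these 9 group means Spearman's rho is given as a description, since stage and cultivar are shared between the points. Among the 60 members with a mean of at least 1 FPKM, 2 had a rho of at least 0.7 and 4 of -0.7 or less, against 2.5% and 1.57% of the 15389 genes with such a mean. The falling ones were LOC100257298 (-0.88), TMT2 (-0.87), LOC100267582 (-0.85) and LOC100243135 (-0.72), and the rising ones HT4 and LOC100250600 (0.73 each). LOC100243135 had that mean only through the 3 EL35 libraries named above (median 0.07 FPKM over the 27), so its rho orders values near 0. With single libraries left out, rho of TMT2 ran from -0.90 to -0.73 and of LOC100257298 from -0.90 to -0.78, on the same side of 0.7 throughout. The other 4 crossed it, with -0.90 to -0.60 for LOC100267582, -0.78 to -0.65 for LOC100243135, 0.65 to 0.78 for HT4 and 0.55 to 0.78 for LOC100250600. On TMM-scaled CPM 1 and 3 members passed in place of 2 and 4, against 2.3% and 2.39% of all genes. TMT2 was highest in the group with the lowest soluble solids, at 367, 364 and 126 FPKM in Italia EL35. In HT4 the Italia groups, lowest in soluble solids at EL35 and EL36, stayed at or under 0.17 FPKM also at EL38.

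**Figure D5:**
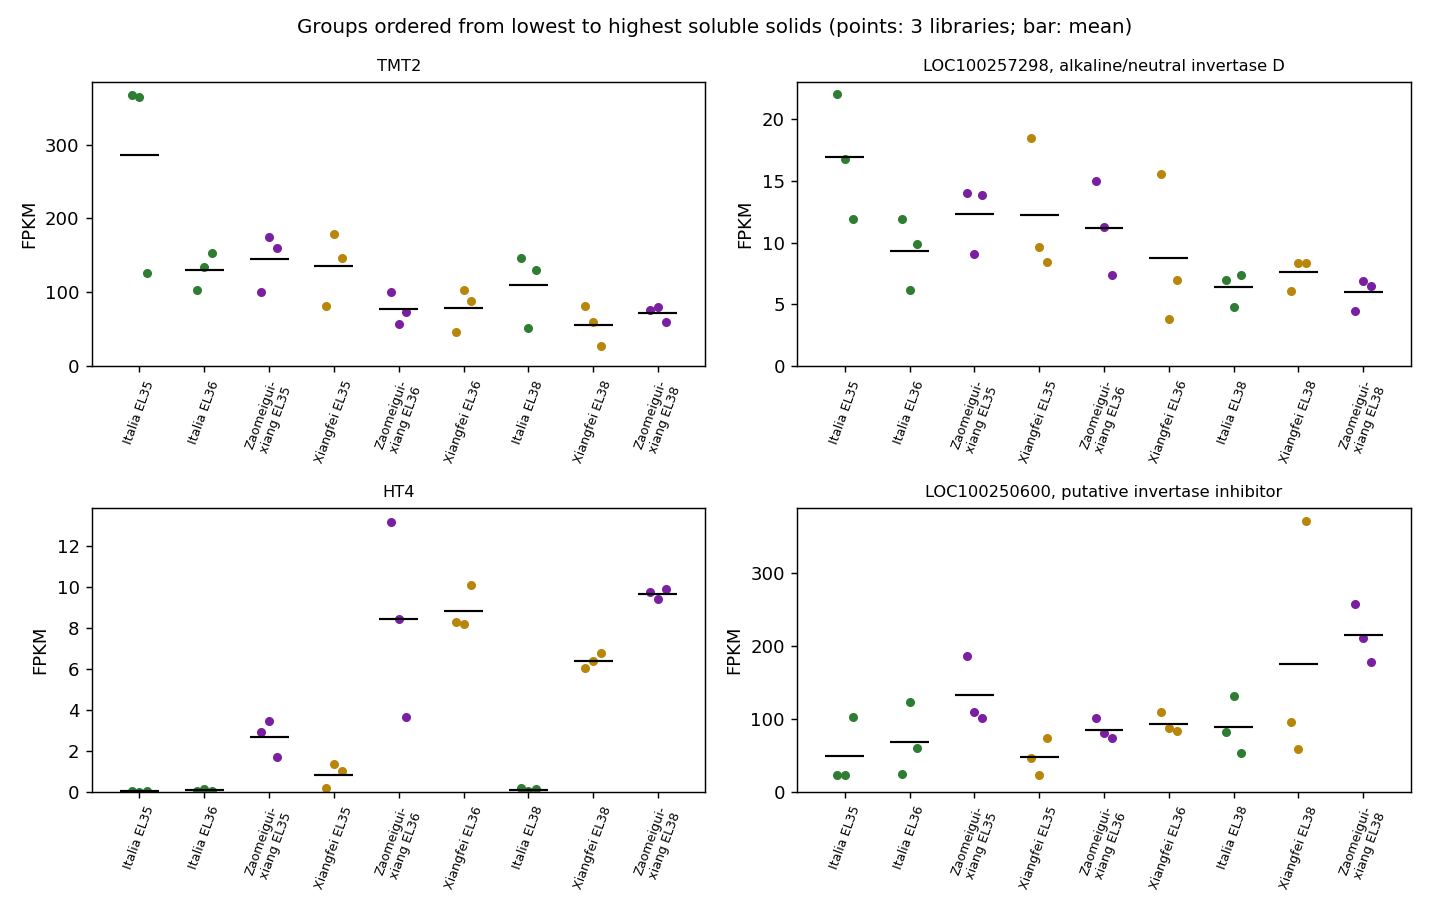
FPKM of TMT2, LOC100257298, HT4 and LOC100250600 in each library, with the 9 groups ordered by the study's soluble solids from lowest (left) to highest (right) and a bar at each group mean. The first falls along the order (rho -0.87), as does the second (-0.88), while HT4 and LOC100250600 rise (0.73 each), HT4 with all Italia libraries near 0.

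The 24 members that did not pass the filter on low counts were not at 0 in every library. Of them 11 were sugar transporters, and 6 of these were listed only in Xiangfei EL35 replicate 1. They were LOC100253388, HT15, HT16, HT18, LOC100240820 and LOC100854088, at 4.65, 1.88, 2.43, 0.86, 0.48 and 0.1 FPKM. HT15, HT16, HT17 and HT18 lie side by side in the reference gene order. The inhibitor LOC104882694 was at 10.5 FPKM in that library and at 0 in the other 26. The rest stayed low, at no more than 3.05 FPKM in any library, and the sucrose transporter SUT2, next to VVSUC27 in the gene order, had 2 counts in all, both in Xiangfei EL36 replicate 1.

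Several calls from EL35 to EL38 were near the threshold. With each of the 18 libraries of the comparison left out in turn, LOC100251390, LOC100256970, LOC100853849, LOC100241232, HT5, HT4, LOC100242301, LOC100241122, LOC100243135, LOC100267582 and VVSUC27 stayed called in all 18 fits. HT6 was called in 8 of them (log2 fold change -1.55 to -1.20), LOC100250600 in 10 (0.83 to 1.31), TMT2 in 12 (-1.46 to -1.13), TMT3 in 12 (-7.48 to -4.30), LOC100266019 in 13 (-1.17 to -0.86) and LOC100257298 in 14 (-1.16 to -0.94). LOC100243135 was high in single EL35 libraries of each cultivar, so leaving out single libraries is no test of its call. DESeq2 gave it no adjusted p for this change. The call of TMT2 was lost without Xiangfei EL35 replicate 2, Italia EL35 replicate 1 or 2, Italia EL38 replicate 2, Zaomeiguixiang EL35 replicate 2 or Zaomeiguixiang EL38 replicate 3. The call of LOC100257298 was lost without Xiangfei EL38 replicate 3, Italia EL35 replicate 1, Italia EL38 replicate 2 or Zaomeiguixiang EL38 replicate 1. HT6 lost it without Xiangfei EL35 replicate 2 or 3, Xiangfei EL38 replicate 3, Italia EL35 replicate 1 or 2, Italia EL38 replicate 2, Zaomeiguixiang EL35 replicate 2 or any Zaomeiguixiang EL38 replicate. LOC100250600 lost it without Xiangfei EL35 replicate 1 or 2, Xiangfei EL38 replicate 3, Italia EL35 replicate 1 or 2, Italia EL38 replicate 2, Zaomeiguixiang EL35 replicate 3 or Zaomeiguixiang EL38 replicate 1. LOC100266019 lost it without Xiangfei EL35 replicate 3, Xiangfei EL38 replicate 3, Italia EL35 replicate 1, Italia EL38 replicate 2 or Zaomeiguixiang EL35 replicate 2. TMT3 lost it without Xiangfei EL35 replicate 1, Xiangfei EL38 replicate 2, Italia EL35 replicate 1, Italia EL38 replicate 2 or Zaomeiguixiang EL38 replicate 1 or 2. Between cultivars, LOC100267921, HT4, LOC100262713, LOC100251390 and VVSUC27 kept each of their calls in all 18 fits. For Italia over Xiangfei, LOC100232974 was called in 5 of 18 (0.98 to 1.38), HT6 in 6 (-1.37 to -1.02), N3 in 16 (0.96 to 1.33) and NIN1 in 17 (-1.21 to -0.71). N3 lost that call without Xiangfei EL36 replicate 1 or Xiangfei EL38 replicate 3, and NIN1 without Xiangfei EL36 replicate 1. For Zaomeiguixiang over Italia, HXK2 lost its call without Italia EL35 replicate 1 or Zaomeiguixiang EL36 replicate 3 (-1.22 to -0.94 over the fits).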

How the data were processed

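RNA-seq tables of 27 berry samples (9 groups of 3 replicates) were used. The authors filtered reads with SOAPnuke, mapped them to a grapevine reference with HISAT2 to find transcripts beyond the annotation, mapped the merged set with Bowtie2 and deposited RSEM expected counts per gene. They also deposited FPKM values, which carry no correction for library composition, and a transcript length per gene, which is not an expression value. Genes absent from a library's table were taken as 0.

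After rounding the expected counts to integers, edgeR 4.0.16 was run (TMM, filterByExpr, 1 mean per group, quasi-likelihood, 18 residual degrees of freedom, common dispersion 0.526), with Benjamini-Hochberg adjustment over 21152 genes and a minimum log2 fold change of 1. Standard errors were derived from the F statistic. Whether cultivars changed unequally from EL35 to EL38 was examined with an F test and no fold minimum. On simulated counts for the EL35 to EL38 comparison (20506 genes) 67 of 100 genes changed by 1.5 on the log2 scale and 99 of 100 changed by 3 were recovered, and 9 unchanged genes were called.

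Members, gene lists and thresholds were chosen with earlier results of these data known. Named were the 2 members with the highest mean FPKM in each family, the 12 called with the smallest p from EL35 to EL38, the 3 called with the smallest p in each cultivar comparison and any called in the test of cultivar difference. Further members named in the text were chosen after their values were seen, because they were called, flagged or high in single libraries. Gene order came from a RefSeq gene table of another assembly (90 of 96 members matched), so no coordinates are given. Alternatives were DESeq2 1.42.0, its size factors in edgeR, no count filter, an adjusted p of 0.001, a replicate block, leaving out single or several libraries, and fits of 6 samples. Those without 3 or 4 libraries were chosen after seeing the data.

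Same-numbered replicates did not deviate together (mean correlation -0.007 over 108 pairs, -0.38 to 0.52, against 0.004 over 216 pairs of different number), so the numbers were not taken as pairs. Counts of 3 per library, the floor used for bounds, cover counting error only.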

Additional observations from a re-analysis of the deposited data

Results flagged for a closer look

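For 3 members every EL38 library lay on one side of every EL35 library in 1 cultivar and on the other side in another. N3 (LOC100243643) was higher at EL38 in Xiangfei and Zaomeiguixiang and lower in Italia, and edgeR's F test for unequal change among the cultivars gave an adjusted p of 0.288. NIN1 was higher at EL38 in Italia, from 5.06, 7.52 and 8.16 to 8.18, 11.5 and 8.62 FPKM, and lower in Zaomeiguixiang, from 18.4, 14.8 and 19.6 to 9.50, 6.65 and 14.1 FPKM, with an adjusted p of 0.597. LOC100243946, annotated as a 6-phosphofructokinase, was higher at EL38 in Italia, from 48.2, 37.6 and 36.5 to 62.6, 66.4 and 58.1 FPKM, and lower in Xiangfei, from 55.2, 49.8 and 54.4 to 38.5, 34.7 and 47.6 FPKM, and in Zaomeiguixiang, with an adjusted p of 0.41. The test did not show a difference between cultivars for any of the 3. How many of all genes split this way was not counted, so the 3 are given without a background share.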

How the results depend on the processing

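Counts within single cultivars depended most on the processing. From EL35 to EL38 in Xiangfei, Italia and Zaomeiguixiang, edgeR called 5, 3 and 5 members, DESeq2 8, 12 and 11, fits on the 6 samples of a cultivar alone 0, 1 and 9, and an adjusted p of 0.001 gave 0, 0 and 0. Without both Xiangfei EL38 replicate 3 and Italia EL35 replicate 3, Italia had 10 and Zaomeiguixiang 8. Without the 3 libraries with seed-protein transcripts they had 10 and 1, and without the 4 that stood apart Xiangfei, Italia and Zaomeiguixiang had 1, 10 and 1. With single libraries left out they had 0 to 3, 1 to 8 and 1 to 2. Shares of all genes are given above for edgeR with all libraries and without 3 or 4. The other counts in this section stand without the share of all genes called in the same fit. They describe the processing alone and do not show that more or fewer members changed relative to other genes. With a replicate block Xiangfei and Zaomeiguixiang had 2 each, although the numbers were not shown to pair the samples, and the count from EL35 to EL38 over the cultivars was 15. At an adjusted p of 0.001 the counts were 3 from EL35 to EL36, 6 from EL35 to EL38, and 6, 3 and 5 for Italia over Xiangfei, Zaomeiguixiang over Xiangfei and Zaomeiguixiang over Italia. DESeq2 called 1 member from EL36 to EL38 and 1 in the test of cultivar difference, which also called 1 without both libraries and 1 without the 3. Leaving out single libraries gave 9 to 12 members from EL35 to EL36, 11 to 18 from EL35 to EL38, 0 to 0 from EL36 to EL38, 12 to 21, 12 to 14 and 10 to 16 in the cultivar comparisons in the order above, 0 to 0 in the test of cultivar difference and 4 to 7 in the order of soluble solids. The cause of these shifts was not tested, apart from the stricter p, which calls fewer by construction. The change of LOC100232974 from EL35 to EL38 turned to -0.27 without both libraries and to -0.36 without 3 or 4, and with single libraries left out it ran from -0.18 to 0.39. Small uncalled changes also crossed 0 in such fits, from -0.21 to 0.25 for LOC100245726, -0.12 to 0.56 for LOC100247121, -0.21 to 0.05 for VVSUC11 and -0.33 to 0.04 for LOC100267606. Median changes over all genes moved by at most 0.04 between scalings.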
